A study of Rattus norvegicus with 6 samples.

Results

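The genes described here are the collagen chains of H9c2 cells, a rat cardiomyoblast line, after loss of the long non-coding RNA Tug1. They are the 44 entries of the deposited count table, among 40456 in all, whose symbol has the form Col, a number, a and a number. The line is wild type by its label and was grown with daily retinoic acid at 1 µM in medium with 1% serum for 5 days of differentiation. Cells were transfected next, over 24 h, and each well got a gapmer at 25 nM. A gapmer is an antisense oligonucleotide with locked nucleic acid ends that leads RNase H to cut its target. The control group (n = 3 libraries) received a negative control gapmer and the knockdown group (n = 3) a gapmer against Tug1, and nothing in the labels ties the libraries to separate passages, so p-values measure the spread between these libraries. Each group rests on 1 gapmer sequence, shown here 5′ to 3′ as the agent that separates the groups.
Tug1 gapmer: attcagtagacagcta
negative control gapmer: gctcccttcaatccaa

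Collagens are matrix proteins whose chains carry a repeated glycine pattern and wind around each other into a rope-like helix. Fibrillar chains build the banded fibrils of connective tissue, network chains build sheets such as the type IV mesh of basement membranes, and FACIT chains (fibril-associated collagens with interrupted helices) sit on the surface of fibrils. The other chains include the beaded filaments of type VI, the anchoring fibrils of type VII and the multiplexins. In the heart, types I and III form the interstitial fibrils, and a basement membrane with type IV surrounds each muscle cell.

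Total counts ran from 12978548 to 13544337 per library, and levels are given as CPM (counts scaled to a common library size) on the scale of TMM, a normalization for library composition. Tug1 itself averaged 54.0 ± 1.77 CPM without and 11.9 ± 0.609 CPM with its gapmer (SD, n = 3), so the libraries follow their labels. The label calls the cells cardiomyocytes. In controls, Myh7, the slow cardiac myosin, had no count, and the skeletal muscle factors Myog and Myod1 were at 275 and 59.7 CPM. Cardiac troponin T (Tnnt2) was at 349 CPM in the same libraries and cardiac actin (Actc1) at 9.22 CPM. These markers were mixed, and the identity of the cells was not tested. A change was called where edgeR's quasi-likelihood test, adjusted over all tested genes, gave p under 0.05. Log2 fold changes are knockdown over control.

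Of the 44 chains, 29 passed the expression filter and were tested, 10 fibrillar, 8 network, 5 FACIT and 6 other. Among these 29, 16 chains rose, 7 fell and 6 were not called. The called share was 79.3%, beside 61.7% of all 14216 tested genes. Over all tested genes, 30.8% were called higher and 30.9% lower. The median log2 fold change was 0.40 over the tested chains and 0.00 over all tested genes. The control and knockdown values did not overlap for 22 of the 29 chains, beside 65.6% of all tested genes. Among the called chains, 3 moved by 1 or more on the log2 scale, Col11a2, Col4a6 and Col20a1, all of them upward, beside 9.80% of all tested genes in either direction.

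**Figure D1:**
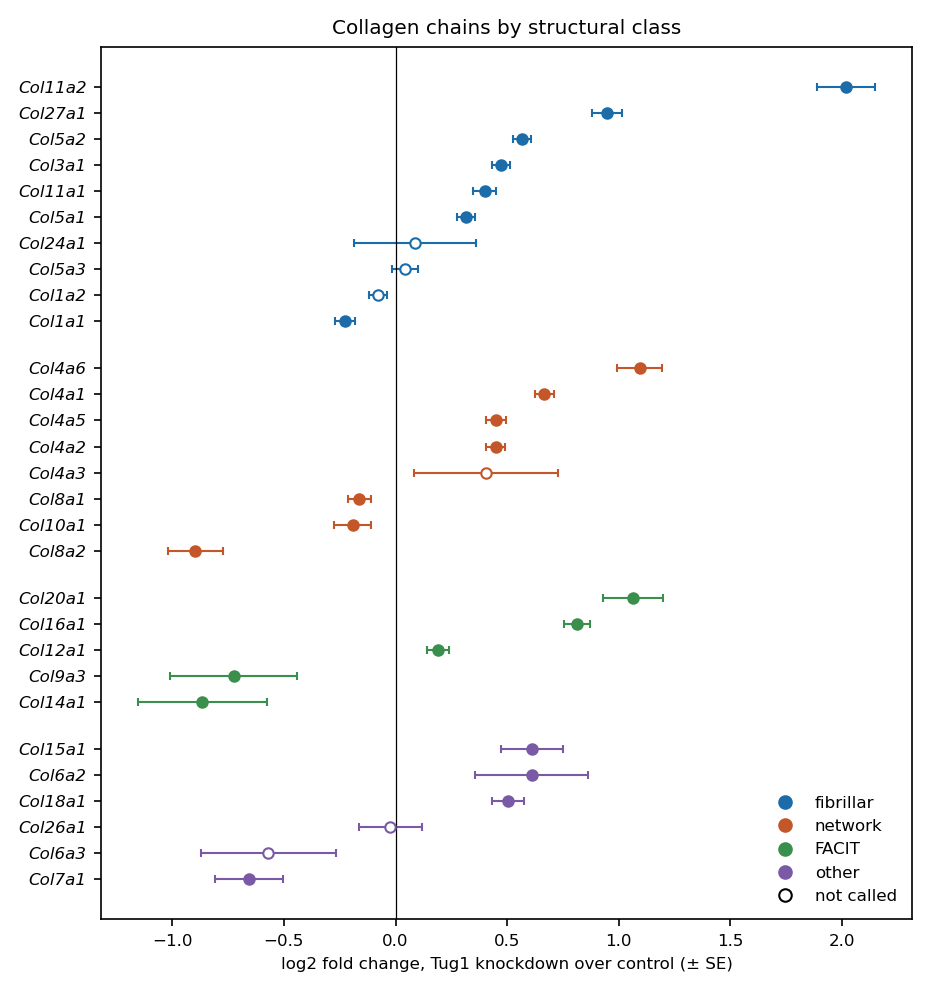
Log2 fold change of each tested collagen chain (x axis, knockdown over control, bars are the SE of the fit), ordered within the 4 classes. Filled points were called at an adjusted p under 0.05 and open points were not. Col11a2 lies furthest right at 2.02 and Col8a2 furthest left at -0.90.

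Collagen genes are long, and over all genes with a known span the difference between the groups followed a trend with gene length. The cause of that trend was not tested. Of the 29 tested chains, 27 had a genomic span above the median of tested genes and 11 were among the longest 10% of them. An alternative fit with an offset for genomic span removes each library's trend with gene length. It left 21 chains called, 13 higher and 8 lower, beside 62.2% called of all genes tested in that fit. The median log2 fold change of the chains went from 0.40 to 0.09. Col11a2 was at 2.00 with the offset, Col20a1 at 1.02, Col3a1 at 0.43, Col8a2 at -0.90 and Col1a1 at -0.18. Col10a1, the shortest tested chain, moved from -0.19 to -0.08 and lost its call. Col5a1 (0.05) and Col11a1 (0.09), both long, lost their calls too, and Col12a1 crossed zero (-0.03). Col5a2 (0.30), Col4a2 (0.20), Col4a5 (0.13), Col4a6 (0.70) and Col18a1 (0.30) stayed called as higher at smaller values, and Col4a1 (0.45), Col15a1 (0.41), Col16a1 (0.71) and Col27a1 (0.72) were called too. Col8a1 (-0.41) and Col14a1 (-1.19) lay lower than without the offset, and Col1a2 (-0.12) and Col6a3 (-0.72) were called as lower with it.

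**Figure D2:**
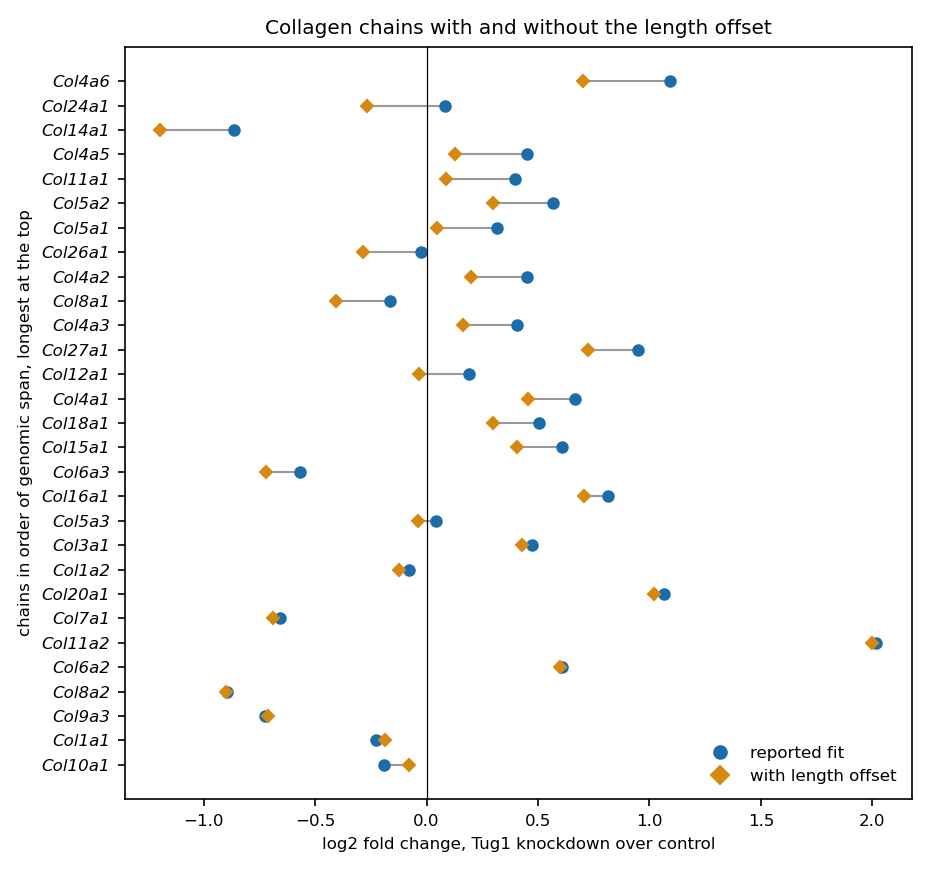
Log2 fold change of each tested collagen chain (x axis) in the reported fit (circles) and with the offset for genomic span (diamonds), with the longest gene at the top (y axis). The lines are longest for long genes such as Col4a6, Col24a1 and Col14a1, and hardly visible for Col11a2 and Col8a2.

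The fibrillar class opened with type I, the main fibril collagen, and neither chain was called higher. Col1a1 was at 21196, 22490.4 and 21393 CPM in control replicates 1 to 3 and at 17321, 19357 and 18985 CPM in knockdown replicates 1 to 3. The groups did not overlap, with knockdown replicate 1 lowest. The change of Col1a1 in log2 units was -0.23 (SE 0.0447, edgeR adjusted p 0.000138), a level of 85.5% of control. Col1a2, the partner that completes the type I molecule, was at 14925, 15359 and 15129 CPM in controls and at 13772, 14435 and 14778 CPM after knockdown. Its groups did not overlap either, but at -0.08 (SE 0.0403, edgeR adjusted p 0.0926) it was not called. That call was sensitive to the analysis, since Col1a2 passed as lower with limma-voom (adjusted p 0.0259) and when knockdown replicate 3 was left out (-0.10, edgeR adjusted p 0.0309).

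Col3a1 and 2 of the 3 type V chains rose, beside 30.8% of all tested genes. Col3a1, which forms type III fibrils together with type I, was at 6530, 6189 and 6561 CPM in controls and at 8852, 8858 and 9075 CPM after knockdown. The groups stood well apart, and the change in log2 units was 0.47 (SE 0.04, edgeR adjusted p 6.29e-10). Type V collagen is known for starting fibrils and setting their width. Its chain Col5a2 was at 1626, 1528 and 1658 CPM in controls and at 2370.4, 2329 and 2426 CPM after knockdown, or 0.57 on the log2 scale (SE 0.0419, edgeR adjusted p 7.12e-11). Col5a1 was at 825, 841 and 839 CPM in controls and at 996, 1074 and 1045 CPM after knockdown, or 0.31 on the log2 scale (SE 0.0417, edgeR adjusted p 7.42e-07), a call that the length offset ended. Groups did not overlap for either type V chain. The remaining type V chain, Col5a3, overlapped between groups and was not called (0.04, SE 0.0585). Col3a1 and Col5a2 are direct neighbours among coding genes in the rat RefSeq table of assembly GRCr8, and both rose.

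**Figure D3:**
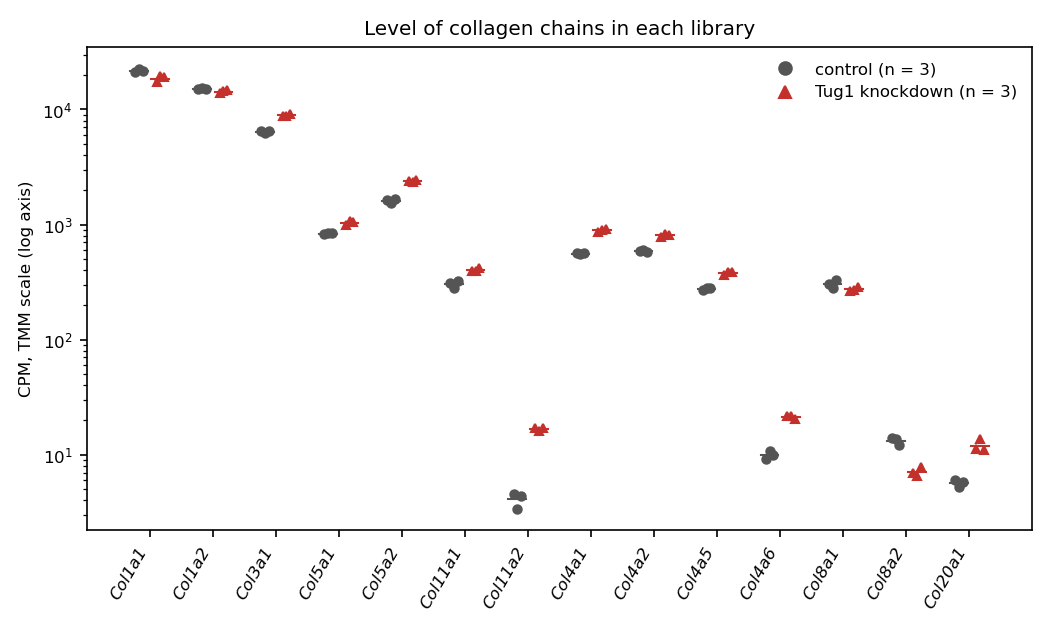
Level of 14 collagen chains, chosen with their values known, in each library (y axis, CPM on a log axis; circles are control libraries, triangles knockdown libraries, lines the group means). The knockdown libraries lie below the controls for Col1a1, Col1a2 and Col8a2, and the groups overlap for Col8a1. The knockdown libraries lie above the controls for Col3a1, Col5a1, Col5a2, Col11a1, Col11a2, Col4a1, Col4a2, Col4a5, Col4a6 and Col20a1.

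Type XI collagen, a relative of type V known from the core of cartilage fibrils, held the tested chain with the largest rise. Col11a2 was at 4.53, 3.41 and 4.40 CPM in controls (59, 44 and 57 counts) and at 16.89, 16.13 and 16.99 CPM after knockdown (233, 218 and 225 counts). No library came near the other group, and the change in log2 units was 2.02 (SE 0.131, edgeR adjusted p 8.68e-12), a 4.06-fold higher level. Its partner Col11a1 rose less, from 313, 281 and 322 CPM to 394, 394 and 421 CPM, with a change of 0.40 in log2 units (SE 0.0503, edgeR adjusted p 3.65e-07), a call that the length offset ended as well. Col27a1, a fibrillar chain of cartilage and other tissues, rose from a mean of 34.8 ± 2.67 CPM to 67.1 ± 3.39 CPM (SD, n = 3), or 0.95 on the log2 scale (SE 0.0677). Col24a1, close to 1.7 CPM in controls, was not called (0.09, SE 0.273). Col2a1, the main cartilage fibril chain, was below the filter with 1, 0 and 2 counts in controls and 8, 14 and 3 counts after knockdown.

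Of 8 chondrocyte markers, 5 were tested and 3 were called, all lower, beside 30.9% of all tested genes called lower. The share called in either direction was close to the 61.7% of all tested genes. Sox9, the transcription factor known to drive cartilage collagen genes, was at -1.65 (SE 0.117), and the link protein Hapln1 at -1.72 (SE 0.218). The matrix protein Comp was at -2.86 (SE 0.474), with 19, 15 and 17 counts in controls and 1, 4 and 2 after knockdown. Comp passed the filter through its control libraries alone, so its call is no separate support for a fall. The 8 markers summed to 33.2 to 39.2 CPM in controls and 14.4 to 15.1 CPM after knockdown, and Matn1 had no count in any library. Acan, which encodes the cartilage proteoglycan aggrecan, was below the filter.

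The bases just upstream of the RefSeq start of Col11a2 are shown because that gene moved furthest. Those of Col20a1 and Col8a2 are shown for their log2 fold changes in the reported fit. Col20a1 had the highest among FACIT chains and Col8a2 the lowest among all tested chains. All were chosen with their values known. Each is the 100 bases before the start in GRCr8, 5′ to 3′ on the strand of the gene. Capitals mark the GC box GGGCGG, the CCAAT box CCAAT and the TATA box TATAAA, or the complement of any of them. Col11a2 lies on the minus strand at chr20:4817649-4817748, Col20a1 on the plus strand at chr3:188479402-188479501 and Col8a2 on the plus strand at chr5:143870669-143870768.
Col11a2: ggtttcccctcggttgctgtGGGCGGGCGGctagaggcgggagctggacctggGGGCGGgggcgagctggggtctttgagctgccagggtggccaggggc
Col20a1: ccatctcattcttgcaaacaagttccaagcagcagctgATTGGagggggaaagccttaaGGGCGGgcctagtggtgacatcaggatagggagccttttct
Col8a2: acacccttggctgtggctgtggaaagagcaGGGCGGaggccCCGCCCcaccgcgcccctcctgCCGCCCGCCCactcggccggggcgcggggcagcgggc

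The stretches that belong to the strongest rise and the strongest fall of the reported fit both carry GC boxes. There are 3 in Col11a2 and 4 in Col8a2, some of them overlapping. Over the 250 bases before each start, a GC box on either strand was present in 20 of 38 windows of collagen genes (52.6%) and in 30.5% of all 33469 windows of the table. A CCAAT box was present in 31.6% of the collagen windows and 34.0% of all windows, a TATA box in 10.5% and 12.9%. The SMAD element CAGAC stood in 34.2% of the collagen windows against 42.9% of all, and the E-box CANNTG in 57.9% against 65.5%. The windows covered 35 of the 44 chains. These matches describe the letters only.

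Among the network chains, 4 of the 5 tested type IV chains of basement membranes rose, beside 30.8% of all tested genes. The short-chain types VIII and X were called lower, beside 30.9% of all tested genes, with overlapping groups for Col8a1 and Col10a1. Col4a1 was at 561, 556 and 563 CPM in controls and at 856, 891 and 921 CPM after knockdown, or 0.67 on the log2 scale (SE 0.042, edgeR adjusted p 5.19e-12). Its usual partner Col4a2 was at 591, 597 and 582 CPM in controls and at 778, 830.4 and 808 CPM after knockdown, or 0.45 on the log2 scale (SE 0.0417, edgeR adjusted p 3.06e-09). Both chains were higher in 3 of 3 knockdown libraries than in any control. These genes lie head to head on opposite strands, with 76 bases between their RefSeq starts. The bases between them are shown because both neighbours of the interval rose. They lie at chr16:84885521-84885596 of GRCr8 on the plus strand, the strand of Col4a1.
Col4a1-Col4a2 interval: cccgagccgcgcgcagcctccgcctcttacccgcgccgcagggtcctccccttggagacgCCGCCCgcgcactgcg

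The interval holds 1 GC box, in capitals, and no CCAAT or TATA box. The X-linked pair Col4a5 and Col4a6, found in some basement membranes in place of the common chains, is also head to head, with 1414 bases between the starts. Col4a5 was at 268, 281 and 283 CPM in controls and at 366, 387 and 383 CPM after knockdown, or 0.45 on the log2 scale (SE 0.0444, edgeR adjusted p 8.43e-09). Col4a6 rose further, from 9.13, 10.8 and 9.95 CPM to 21.6, 21.6 and 20.5 CPM, with a change of 1.09 in log2 units (SE 0.1, edgeR adjusted p 2.46e-09). Neither gene's groups overlapped. In the remaining pair, with 412 bases between the starts, Col4a3 was near 1 CPM and not called (0.40, SE 0.322), and Col4a4 had no count in any library, which allows up to 3 counts in each. The 100 bases before the starts of the X-linked pair are shown beside the shared interval, with Col4a6 on the minus strand at chrX:109905945-109906044 and Col4a5 on the plus strand at chrX:109907259-109907358.
Col4a6: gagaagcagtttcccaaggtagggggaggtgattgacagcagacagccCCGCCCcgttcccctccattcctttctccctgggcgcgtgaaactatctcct
Col4a5: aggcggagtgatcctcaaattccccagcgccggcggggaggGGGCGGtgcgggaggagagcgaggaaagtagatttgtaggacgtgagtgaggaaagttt

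Muscle markers were higher in the same libraries as type IV. Of 11 markers, 10 were tested, 8 rose (30.8% of all tested genes did) and Myod1 fell, and their summed level was 1154 to 1188 CPM in controls and 1608 to 1698 CPM after knockdown. Of 5 endothelial markers only Tek passed the filter, uncalled, and the summed level was 3.02 to 4.47 CPM in controls and 2.81 to 3.91 CPM after knockdown. Kdr, a defining endothelial receptor, had no count in any control library. In these bulk libraries, fewer cells of a kind and less RNA per cell cannot be told apart, and the part of muscle or endothelial RNA in the type IV values was not tested.

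Type VIII, known from the vessel wall and the cornea, fell. Col8a2 was at 13.9, 13.7 and 12.1 CPM in controls and at 6.96, 6.51 and 7.85 CPM after knockdown. Every knockdown library lay below every control, and the change in log2 units was -0.90 (SE 0.123, edgeR adjusted p 1.31e-06). Its partner Col8a1 was at 304, 283 and 329 CPM in controls and at 263, 270 and 286 CPM after knockdown. Here the groups overlapped, and the change in log2 units was -0.16 (SE 0.0521, edgeR adjusted p 0.00992). Col8a1 was not called without control replicate 3 (-0.10, edgeR adjusted p 0.099) or when library totals set the scale (-0.11, edgeR adjusted p 0.0747). Col10a1, a chain of growth plate cartilage, was called at -0.19 (SE 0.0825, edgeR adjusted p 0.047) with overlapping groups. Its call was lost in 11 of 16 alternatives, among them the fits without control replicate 1 or 3 or without any 1 of the knockdown replicates (-0.21 to -0.10, edgeR adjusted p 0.0567 to 0.315).

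The FACIT chains split, with 3 higher and 2 lower among the 5 tested, beside 30.8% and 30.9% of all tested genes. However, 1 of the 3, Col12a1, was not called with the length offset. Col20a1 was at 6.06, 5.26 and 5.78 CPM in controls and at 11.3, 13.6 and 10.9 CPM after knockdown, or 1.06 on the log2 scale (SE 0.136, edgeR adjusted p 4.51e-07). Col16a1, a chain of fibril surfaces and of the cell border, averaged 43.9 ± 1.88 CPM in the control and 77.1 ± 0.426 CPM in the knockdown libraries (SD, n = 3), or 0.81 on the log2 scale (SE 0.0581). Neither gene's groups overlapped. Col12a1, a large FACIT of tendon and muscle sheaths, rose by 0.19 (SE 0.0486, edgeR adjusted p 0.00166), and every knockdown library (289, 306 and 321 CPM) lay above every control library (274, 255 and 273 CPM). With the length offset Col12a1 turned to -0.03 (edgeR adjusted p 0.525).

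The FACIT chains that fell were thinly sampled. Col14a1, which sits on type I fibrils, had 62, 37 and 29 counts in controls and 29, 16 and 28 counts after knockdown. Its change in log2 units was -0.87 (SE 0.288, edgeR adjusted p 0.0121), but control replicate 1 was the highest library by far, and without it the change was -0.50 and not called (edgeR adjusted p 0.169). It was not called without knockdown replicate 2 either (-0.64, edgeR adjusted p 0.0654). Col9a3, a chain of the cartilage FACIT type IX, had 23, 30 and 25 counts in controls and 14, 20 and 15 after knockdown, or -0.73 on the log2 scale (SE 0.285, edgeR adjusted p 0.031). Its call was lost without control replicate 2 or 3 or without knockdown replicate 1 or 3 (-0.75 to -0.61, edgeR adjusted p 0.0606 to 0.122), and with DESeq2's Wald test (adjusted p 0.101).

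Of the other chains, both multiplexins rose, beside 30.8% of all tested genes. Multiplexins are basement membrane collagens that also carry sugar chains, and Col18a1 holds the endostatin fragment. Col18a1 was at 26.5, 28.9 and 27.8 CPM in controls and at 38.3, 39.6 and 40.2 CPM after knockdown, or 0.50 on the log2 scale (SE 0.071, edgeR adjusted p 1.81e-06). Col15a1 averaged 5.65 ± 0.274 CPM in the control and 8.63 ± 0.662 CPM in the knockdown libraries (SD, n = 3), or 0.61 on the log2 scale (SE 0.139, edgeR adjusted p 0.000585). Col7a1, the anchoring fibril chain of the skin, went the other way, from 6.98, 6.97 and 7.40 CPM to 4.49, 4.81 and 4.23 CPM, or -0.66 on the log2 scale (SE 0.151, edgeR adjusted p 0.000634). None of these 3 chains overlapped between groups. Col26a1 was not called (-0.02, SE 0.143).

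Type VI collagen, the beaded filament that surrounds muscle fibres in tissue, had few counts in both groups. Col6a1 had 9, 6 and 11 counts in controls and 6, 10 and 5 after knockdown and was not tested. Col6a2 had 32, 16 and 28 counts in controls and 43, 41 and 37 after knockdown. It was called higher at 0.61 (SE 0.252, edgeR adjusted p 0.0402), but not without control replicate 2 or 3 or any 1 knockdown replicate (0.37 to 0.69, edgeR adjusted p 0.0516 to 0.219), nor with DESeq2's Wald test (adjusted p 0.101). Col6a3 had 20, 28 and 29 counts in controls and 25, 18 and 11 after knockdown and was not called (-0.57, SE 0.304). It passed as lower without knockdown replicate 1 (-0.86, edgeR adjusted p 0.0382). A type VI molecule needs both Col6a1 and Col6a2 beside 1 further chain.

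The 15 chains below the filter never exceeded 14 counts in a library, and 2 of them, Col4a4 and Col25a1, had none. Knockdown counts were all above control counts for 5 of them. Besides Col2a1 these were Col22a1, a chain of muscle and tendon junctions, with 0, 0 and 0 counts against 4, 2 and 7, Col6a4 with 2, 4 and 1 against 9, 8 and 11, and Col6a5 and Col6a6, which stayed at or under 5 counts in each library. With no expression filter Col2a1, Col22a1 and Col6a4 were called higher (edgeR adjusted p 0.00168, 0.00388 and 0.0125). In that fit 34.5% of all 26059 genes tested were called in either direction. The control counts of Col2a1, Col22a1 and Col6a4 lay at or near the detection limit. Their calls therefore rest on low counts in the knockdown libraries and are no separate support for a rise. How often groups stood apart among all genes below the filter was not computed. Col19a1 had 6, 8 and 10 counts in controls and 6, 4 and 2 after knockdown. The others, Col9a1, Col9a2, Col6a1, Col13a1, Col17a1, Col23a1 and Col28a1, overlapped between groups at 0 to 11 counts.

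The summed level of the collagen chains overlapped between the groups, while single chains moved in both directions. All 44 chains together held 4.70%, 4.78% and 4.72% of the counts in controls and 4.75%, 5.01% and 5.08% after knockdown. On the TMM scale their sum was 48276 ± 618 CPM in the control libraries and 48653 ± 1757 CPM in the knockdown libraries (SD, n = 3). The make-up of this sum did not overlap. Col1a1 held 44.4% to 46.0% of collagen counts in controls and 37.1% to 39.1% after knockdown, and Col3a1 went from 12.7% to 13.7% up to 17.9% to 19.0%. The 41 chains besides Col1a1, Col1a2 and Col3a1 summed to 5019 ± 122 CPM in the control libraries and 6842 ± 146 CPM in the knockdown libraries (SD, n = 3), or 136% of control. Col5a2, from a mean of 1604 to 2375 CPM, made the largest single part of that rise, and 15 of the 41 chains were below the filter. The sums carry no length offset, which lowered the log2 fold change of Col5a2 from 0.57 to 0.30. The shares given here are of counts, which also depend on transcript length, so only their change between groups is read.

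**Figure D4:**
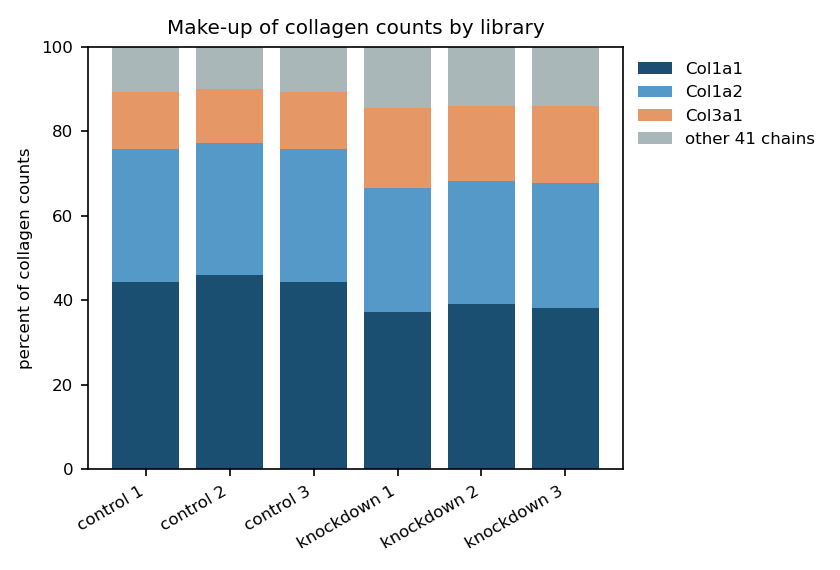
Share of each library's collagen counts (y axis, percent) taken by Col1a1, Col1a2, Col3a1 and the other 41 chains, for the 3 control and 3 knockdown libraries. The 3 named chains together held 89.36% to 90.01% in controls and 85.7% to 86.1% after knockdown, with a narrower Col1a1 and a wider Col3a1 band.

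Ratios between chains of the same molecule were compared within each library, which needs no scaling for library size. Of 8 pairs considered, 5 had both chains tested. A trend with gene length does not cancel between chains of unlike span, and the ratios carry no correction for it. In log2 fold change, the length offset brought Col8a1 and Col8a2 closer (-0.41 and -0.90, from -0.16 and -0.90). It moved Col11a1 and Col11a2 apart (0.09 and 2.00, from 0.40 and 2.02). Type I chains also came closer, and Col4a1 and Col4a2 moved apart. The ratio of Col1a1 to Col1a2 counts was 1.42, 1.46 and 1.41 in controls and 1.26, 1.34 and 1.29 after knockdown. That of Col5a1 to Col5a2 was 0.521 ± 0.0251 without and 0.437 ± 0.0213 with the Tug1 gapmer, and that of Col11a1 to Col11a2 was 75.0 ± 6.89 and 24.2 ± 0.751 (SD, n = 3). The knockdown values were the higher ones for Col4a1 to Col4a2, at 0.950 ± 0.0186 and 1.10 ± 0.0339, and for Col8a1 to Col8a2, at 23.2 ± 3.44 and 38.5 ± 2.63 (SD, n = 3). The groups did not overlap for any of the 5 ratios. In the exact permutation test over libraries (two-sided) each gave p = 0.1, which is the smallest that 3 against 3 libraries allow, and the adjusted value over the 5 pairs was also 0.1. The ratio of Col3a1 to Col1a1, added after its values were seen and given as a description, was 0.308, 0.275 and 0.307 in controls and 0.511, 0.458 and 0.478 after knockdown.

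In the reported fit, the enzymes and partners that fold, export, trim, join and bind collagen fell more often than they rose. Of 59 such genes in the table, 54 were tested, 31 fell, 10 rose and 13 were not called. The called share was 75.9%, beside 61.7% of all tested genes, where 30.9% fell and 30.8% rose. The counts by role that follow are small and stand beside the same shares. The median log2 fold change of the 54 tested genes was -0.16, beside 0.00 over all tested genes. With the length offset 39 of the genes were called, beside 62.2% of all genes tested in that fit. Their split by direction and their median with the offset are not given here. In the reticulum, collagen chains are hydroxylated, given sugars and held by chaperones, and of 16 tested genes for these steps 12 fell and 3 rose. Serpinh1, the collagen chaperone HSP47, fell from 2458, 2513 and 2555 CPM to 1989, 2006 and 2015 CPM, or -0.32 on the log2 scale (SE 0.039, edgeR adjusted p 1.76e-07) and -0.22 with the length offset. The groups did not overlap. The prolyl 4-hydroxylase subunits P4ha1 and P4ha2 fell by 0.15 and 0.48 on the log2 scale, P4ha1 losing its call where plain library totals set the scale (-0.10, edgeR adjusted p 0.0589) and falling further with the length offset (-0.37, edgeR adjusted p 1.01e-07). Colgalt1, which adds galactose to hydroxylysine, fell furthest in this group (-0.72, SE 0.0466). Plod2, the lysyl hydroxylase of the chain ends, rose furthest (0.55, SE 0.0511).

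Of 9 genes for export from the reticulum, 6 fell and 2 rose. Sec24d, a coat protein of the vesicles that carry procollagen, fell by 0.62 (SE 0.0575), while Mia3, the TANGO1 receptor that loads procollagen at exit sites, rose by 0.39 (SE 0.0492). Of 5 tested genes for cleavage of the propeptides, 3 fell and 1 rose. Bmp1, which trims the carboxyl end, was at 264, 273 and 255 CPM in controls and at 213, 215 and 205 CPM after knockdown, or -0.33 on the log2 scale (SE 0.046, edgeR adjusted p 1.87e-06). Adamts14, a protease of the amino end, rose by 0.64 (SE 0.0728).

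Cross-linking enzymes fell in 4 of 6 cases and rose in 1. Lox, the lysyl oxidase that joins fibrillar chains, fell from 762, 727 and 803 CPM to 507, 478 and 494 CPM, or -0.63 on the log2 scale (SE 0.045, edgeR adjusted p 3.81e-11). Loxl4 fell furthest, by 1.11 (SE 0.0543), from 146 ± 0.198 to 67.5 ± 3.87 CPM (SD, n = 3). Loxl2, which acts on type IV among others, rose by 0.35 (SE 0.0431), or 0.17 with the length offset. Among 10 tested genes of fibril assembly, 3 fell, 1 rose and 6 were not called, a called share of 40% that lies below the 61.7% of all tested genes, with decorin (Dcn) highest at 0.57 (SE 0.0459) and periostin (Postn) lowest at -0.47 (SE 0.0604). Of 8 receptors of collagen, 3 fell and 2 rose, a called share of 62.5% that is close to that of all tested genes. Itga1, the integrin subunit that prefers type IV, rose by 0.76 (SE 0.0629), or 0.48 with the length offset, and its partner Itgb1 fell by 0.43 (SE 0.0398).

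**Figure D5:**
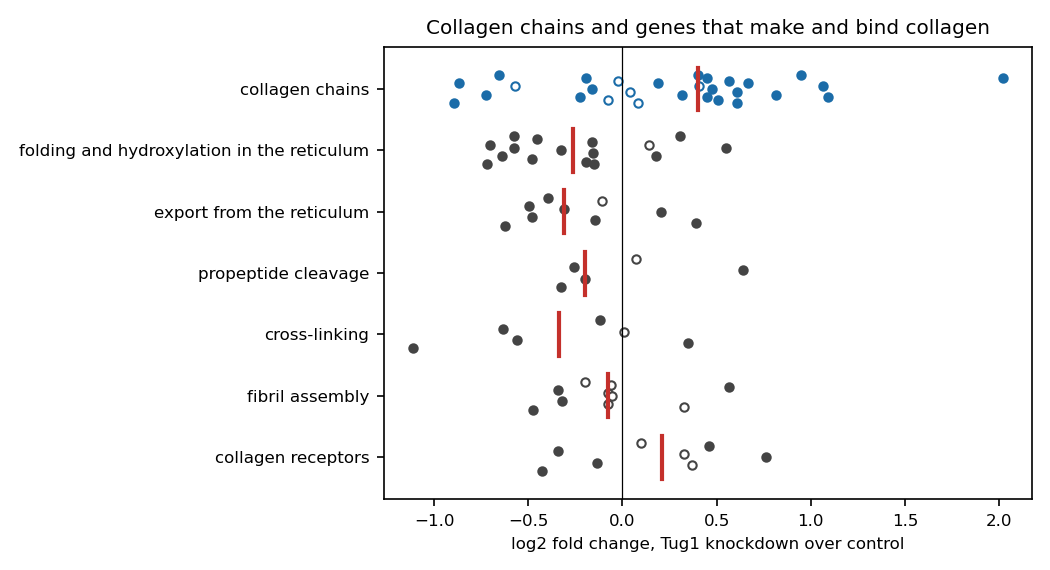
Log2 fold change (x axis) of the tested collagen chains and of the tested genes of 6 role groups (y axis, 1 point a gene; filled points were called, red bars are medians). The median of the chains is 0.40. The medians lie below zero for 5 of the role groups, from -0.34 for cross-linking to -0.08 for fibril assembly, and at 0.21 for the receptors. With the length offset the median of the chains was 0.09, and the medians of the role groups with it are not given here.

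Fibroblasts are the main makers of fibrillar collagen in the heart. Of 7 fibroblast markers, 4 were tested and 3 fell, beside 30.9% of all tested genes. Col1a1 fell too, while the other 6 called fibrillar chains rose. The summed level was 1181 to 1194 CPM in controls and 916 to 940 CPM after knockdown. Tcf21 had no count in any library, and Pdgfra and Fap were below the filter. Of the smooth muscle markers, 5 were tested and 3 rose, beside 30.8% of all tested genes. Their share called in either direction was close to that of all tested genes, with sums of 959 to 1052 and 1114 to 1270 CPM. The macrophage markers Ptprc and Adgre1 had no count in any library, Cd68 rose (1.09) and the 4 markers summed to 10.6 to 12.1 and 15.4 to 17.2 CPM. Of 5 epithelial markers only Krt8 was tested, and it fell (-0.61), the sums being 77.5 to 89.9 and 53.0 to 57.2 CPM. The part of these markers in the collagen results was not tested.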

How the data were processed

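Poly-A RNA was sequenced as stranded libraries from 500 ng of RNA with integrity numbers of at least 9, per the labels' protocols. What the authors deposited is a table of unscaled counts, whole numbers by gene symbol, as its values show. FastQC 0.11.7, fastp 0.14.1 and STAR 2.5 are named in the submitters' processing notes, without their order. Build, annotation, counting tool and strand setting are not given in the sources used here, so reads shared by related chains could be split in unknown ways.

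Counts were fitted in R 4.3.3 with edgeR 4.0.16: expression filter (minimum count 10, minimum total 15), TMM (factors 0.979 to 1.02), quasi-likelihood test on all 6 libraries without a block (prior count 0.125), two-sided, Benjamini-Hochberg adjustment over 14216 genes. The script was tested on simulated data. It fell short of the recovery first asked for at the smaller of the fold sizes used there, and the criterion was then limited to the larger, so calls of small changes can be missed. At this depth 3 counts, the limit taken for detection, equal 0.217 to 0.232 CPM, for counting error only. Pairs of libraries within a group differed by more than sampling noise (chi-square per degree of freedom 2.15 to 3.55).

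Members, lists and tests were chosen with earlier results of these data known. All tested chains are named; library values are given for called chains that moved by at least 1 on the log2 scale, the 5 with most reads, and their partners, and for others added after their values were seen. Of each role group the highest and lowest called genes are named, besides Serpinh1, P4ha1, P4ha2, Lox and Bmp1. Crtap, Pcolce2, Tnxb and Col21a1 had no entry under these symbols. Promoters came from RefSeq (GRCr8), 35 of 44 chains matched. Levels per coding length were planned but not computed, as coding lengths were not used here. Alternatives were DESeq2 1.42.0 (size factors, Wald test), library totals, limma-voom (limma 3.58.1), filters, a stricter threshold, a replicate block, a length offset (lowess span 0.3) and each library left out.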

Additional observations from a re-analysis of the deposited data

How the results depend on the processing

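Over 16 alternatives, 16 of 29 tested chains and 15 of 16 named pathway genes kept direction and call. Of 464 values for chains, 33 lost a call, 8 gained one and 10 changed sign. Called chains numbered 19 of 29 at an adjusted p of 0.01, where 51.7% of all tested genes were called. They numbered 20 of 29 with DESeq2's Wald test (55.4% of all) and 27 of 42 with no filter (34.5% of all). When a library was left out they numbered 19 to 21 of 29 (56.0% to 58.1% of all). Over all settings, the called share of all genes ran from 34.5% to 63.2%. Called pathway genes ranged from 39 to 44. The FACIT count fell to 3 at an adjusted p of 0.01, by construction. When a library was left out the counts were 7 to 8 (fibrillar), 5 to 7 (network), 4 (FACIT) and 3 to 4 (other).

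Signs changed for 4 chains, of which Col12a1 was called in the reported fit. With the length offset these were Col5a3 (-0.0362, and -0.0365 with the replicate block), Col24a1 (-0.266 and -0.261) and Col12a1 (-0.0333 and -0.0337). Library totals put Col26a1 at 0.0298. With a library left out, Col24a1 ranged from -0.0745 to 0.261 and Col26a1 from -0.159 to 0.102. Beyond the effect that the offset has on long genes by construction, the cause was not tested.

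Replicate numbers did not pair the libraries (correlations of deviations -0.00531, 0.0298 and 0.027). With the replicate block 24 chains were called, beside 62.2% of all tested genes. The added chain was Col1a2 (-0.08, edgeR adjusted p 0.0321), and no chain lost its call. Ratios between chains kept their direction with 1 added to each count and without each library, the alternatives run on them. Depth limits the chains with few counts, such as Col9a3, Col14a1 and type VI.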

Other observations

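Several collagen genes share a place in the genome, and the pairs can be set side by side. In the GRCr8 gene table, Col4a1 and Col4a2, Col3a1 and Col5a2, and Col6a1 and Col6a2 have no other coding gene between them, and Col4a5 and Col4a6 have 1. In the 3 of these pairs with both genes tested, both rose, with log2 fold changes of 0.67 and 0.45, 0.47 and 0.57, and 0.45 and 1.09. With the length offset these values were 0.45 and 0.20, 0.43 and 0.30, and 0.13 and 0.70. Beside them, 16 of 29 tested chains and 30.8% of all tested genes rose. Of Col6a1 and Col6a2 only Col6a2 was tested. Col4a3 and Col4a4, Col9a1 and Col19a1, Col6a4 and Col6a5, and Col6a5 and Col6a6 are also direct neighbours. Among these only Col4a3 was tested, and it was not called.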
